A study of Mus musculus with 8 samples.

Results

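The genes described here are 10 transcripts of thymic epithelial cells, the stromal cells that support developing T cells: Foxn1, Aire, Krt5, Krt8, Krt18, Psmb11, Prss16, Ccl25, Ly75 and Epcam. They were taken by name from a marker list of cortical and medullary thymic epithelium, and all 10 were among the 23420 gene symbols of the count files. The files hold RNA-seq counts of thymus cells of 2 mouse strains, B6 and BALB, which the library titles name without a substrain; all mice were wild type. From each strain there were 2 libraries of whole thymocytes and 2 of sorted DP thymocytes, the CD4+ CD8+ cells that make up most of the thymus. The DP sort also took cells without CD69 and with low or medium staining for H57, which detects the beta chain of the T cell receptor. The 4 groups are called B6 DP, B6 whole, BALB DP and BALB whole. All libraries were made from total RNA with a TruSeq kit that does not keep the strand. Neither the age and sex of the mice nor whether the 2 libraries of a group came from separate animals is given in the sources used here, so p-values measure only the spread between these libraries, which may be technical.

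Thymic epithelium forms a cortex, where thymocytes become DP cells and are positively selected, and a medulla, where self-reactive cells are removed. Foxn1 is the transcription factor that the epithelium of both zones needs to develop. Cortical cells carry the proteasome subunit beta5t, encoded by Psmb11, and the serine protease encoded by Prss16, both of which shape the peptides shown to DP cells, while mature medullary cells carry Aire, which switches on tissue-restricted self-antigens. Ly75 and Epcam are not restricted to epithelium, since dendritic cells can carry both.

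Each library held between 2632083 and 5974684 counts in genes. At that depth a member with 0 counts in a library could still have had up to 3 counts, and such floors and the intervals given below cover counting error only. Folds given below as at least a value set the group with 0 counts at 3 counts and take the other group's counts as observed. They leave out the counting error of that other group and are not 95% limits. The 2 libraries of a group differed by more than counting noise in all 4 groups, least in B6 whole (chi-square per degree of freedom 1.62) and most in BALB DP (18.2). BALB DP replicate 1 stood apart by its share of the ribosomal RNA precursor Rn45s, 3.14% of counts in genes against 5.11% to 8.35% in the other 7 libraries. The sort could be read from the thymocyte genes: 8 markers of mature thymocytes summed to 94.7 to 100.4 CPM in the DP libraries and 467 to 555 CPM in the whole libraries. CPM is a gene's count per 1000000 counts in genes, after scaling between libraries. In bulk libraries like these, fewer cells of a type and less RNA per cell cannot be told apart.

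The members lie on 8 chromosomes of the mouse genome (GRCm38, mm10), and all are protein coding in the GENCODE M21 annotation. Krt8 (chromosome 15, 101996698 to 102004482, minus strand) and Krt18 (chromosome 15, 102028180 to 102032027, plus strand) are neighbours 23697 bases apart, with 0 annotated genes wholly between them, and Krt5 lies on the same chromosome at 101707070 to 101712898. The other genes are Psmb11 (chromosome 14, 54621433 to 54629556), Prss16 (chromosome 13, 22002173 to 22009742), Foxn1 (chromosome 11, 78357577 to 78386558), Aire (chromosome 10, 78030022 to 78043610), Ccl25 (chromosome 8, 4325210 to 4360020), Ly75 (chromosome 2, 60292103 to 60383303) and Epcam (chromosome 17, 87635979 to 87651129). Because the strand was not kept, reads from overlapping genes cannot be told apart. That touches Ccl25, which shares 204 exonic bases with Elavl1 on the other strand, a gene at 161 ± 8.98 CPM in B6 DP and 139 ± 9.80 CPM in B6 whole (SD, n = 2). Aire shares 67 exonic bases with Dnmt3l, which had 0 counts in every library.

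Foxn1 binds DNA at a core of ACGC, so the promoters of the keratin members and of Psmb11 are shown as the sequence context of genes that were higher in whole thymocytes. Each runs from 250 bases before to 50 bases after the RefSeq start on GRCm38.p6, written 5′ to 3′ in the gene's direction, with ACGC or its reverse complement GCGT in capitals.
Psmb11 (chr14:54625060-54625359, plus strand): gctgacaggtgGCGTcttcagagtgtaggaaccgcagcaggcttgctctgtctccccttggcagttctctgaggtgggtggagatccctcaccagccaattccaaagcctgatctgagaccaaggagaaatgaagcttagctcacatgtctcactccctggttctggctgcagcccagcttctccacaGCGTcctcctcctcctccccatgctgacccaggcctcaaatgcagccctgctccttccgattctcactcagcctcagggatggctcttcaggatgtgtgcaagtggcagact
Krt5 (chr15:101712856-101713155, minus strand): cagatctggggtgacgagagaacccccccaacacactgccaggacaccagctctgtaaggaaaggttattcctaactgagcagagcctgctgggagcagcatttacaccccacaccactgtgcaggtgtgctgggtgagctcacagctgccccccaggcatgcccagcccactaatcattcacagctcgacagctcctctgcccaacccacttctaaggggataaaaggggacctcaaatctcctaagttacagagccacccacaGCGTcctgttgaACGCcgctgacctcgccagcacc
Krt8 (chr15:102004293-102004592, minus strand): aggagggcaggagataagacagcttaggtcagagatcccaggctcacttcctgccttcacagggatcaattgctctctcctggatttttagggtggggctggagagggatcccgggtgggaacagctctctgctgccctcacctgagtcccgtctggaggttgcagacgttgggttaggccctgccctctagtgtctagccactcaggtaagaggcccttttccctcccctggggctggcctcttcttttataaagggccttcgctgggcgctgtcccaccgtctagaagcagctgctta
Krt18 (chr15:102027966-102028265, plus strand): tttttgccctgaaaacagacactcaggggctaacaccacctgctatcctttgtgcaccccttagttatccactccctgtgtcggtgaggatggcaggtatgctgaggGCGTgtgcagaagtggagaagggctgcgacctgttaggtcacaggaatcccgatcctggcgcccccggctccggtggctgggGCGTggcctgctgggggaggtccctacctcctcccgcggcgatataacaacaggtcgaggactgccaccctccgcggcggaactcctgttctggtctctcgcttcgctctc
Counted from the start site, the Psmb11 window holds the letters 239 and 62 bases before it, the Krt18 window 143 and 61 bases before it, and the Krt5 window at bases 16 and 28 after it. The Krt8 window holds none. RefSeq promoters were found for 9 of the 10 members, in 10 windows because Ccl25 has 2 starts, and 7 of the 10 windows hold ACGC or GCGT. The Foxn1 and Epcam windows hold none either. Among all 32851 RefSeq promoters of that length, 55.3% hold the 4 letters on either strand, so their presence is a description and not evidence of a binding site.

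In B6, 9 of the 10 members had both whole libraries above both DP libraries, Epcam being the exception, and in BALB all 10 did. The same pattern held for 28.0% of the genes with a count in B6 and 27.1% in BALB. Whole over DP was then tested by edgeR (quasi-likelihood, p adjusted by Benjamini and Hochberg's method over 11409 genes), and a gene was called at an adjusted p under 0.05. Foxn1 had too few counts to be tested, and members with counts almost only in whole libraries passed the filter on low counts through those libraries. Psmb11, though counted in each DP library, passed it through BALB whole. In B6, 6 of 9 tested members were called higher and 0 lower (Krt8, Krt18, Prss16, Aire, Ccl25 and Ly75), against 6.89% of all tested genes called higher and 3.27% lower. In BALB, 7 of 9 were called higher and 0 lower (Krt5, Krt8, Krt18, Psmb11, Prss16, Aire and Ccl25), against 10.6% of all tested genes called higher and 6.59% lower. The median log2 fold change of the 9 was 4.55 in B6, or 1.53 with the 2 members that had no count in B6 DP set at their lower bound, and 3.92 in BALB, or 3.02 at the bounds. Over all tested genes the medians were 0.0023 in B6 and -0.0042 in BALB. The B6 count rests on each of its 4 libraries: without B6 DP replicate 1 it was 4, without B6 DP replicate 2 it was 3, without B6 whole replicate 1 it was 3, and without B6 whole replicate 2 it was 4. Over all genes the calls, 1159 with every library, were 416, 486, 378 and 450 in the same order. The log2 fold change of Ccl25 without single libraries lay between 1.29 and 1.65 and that of Ly75 between 0.62 and 0.69.

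**Figure D1:**
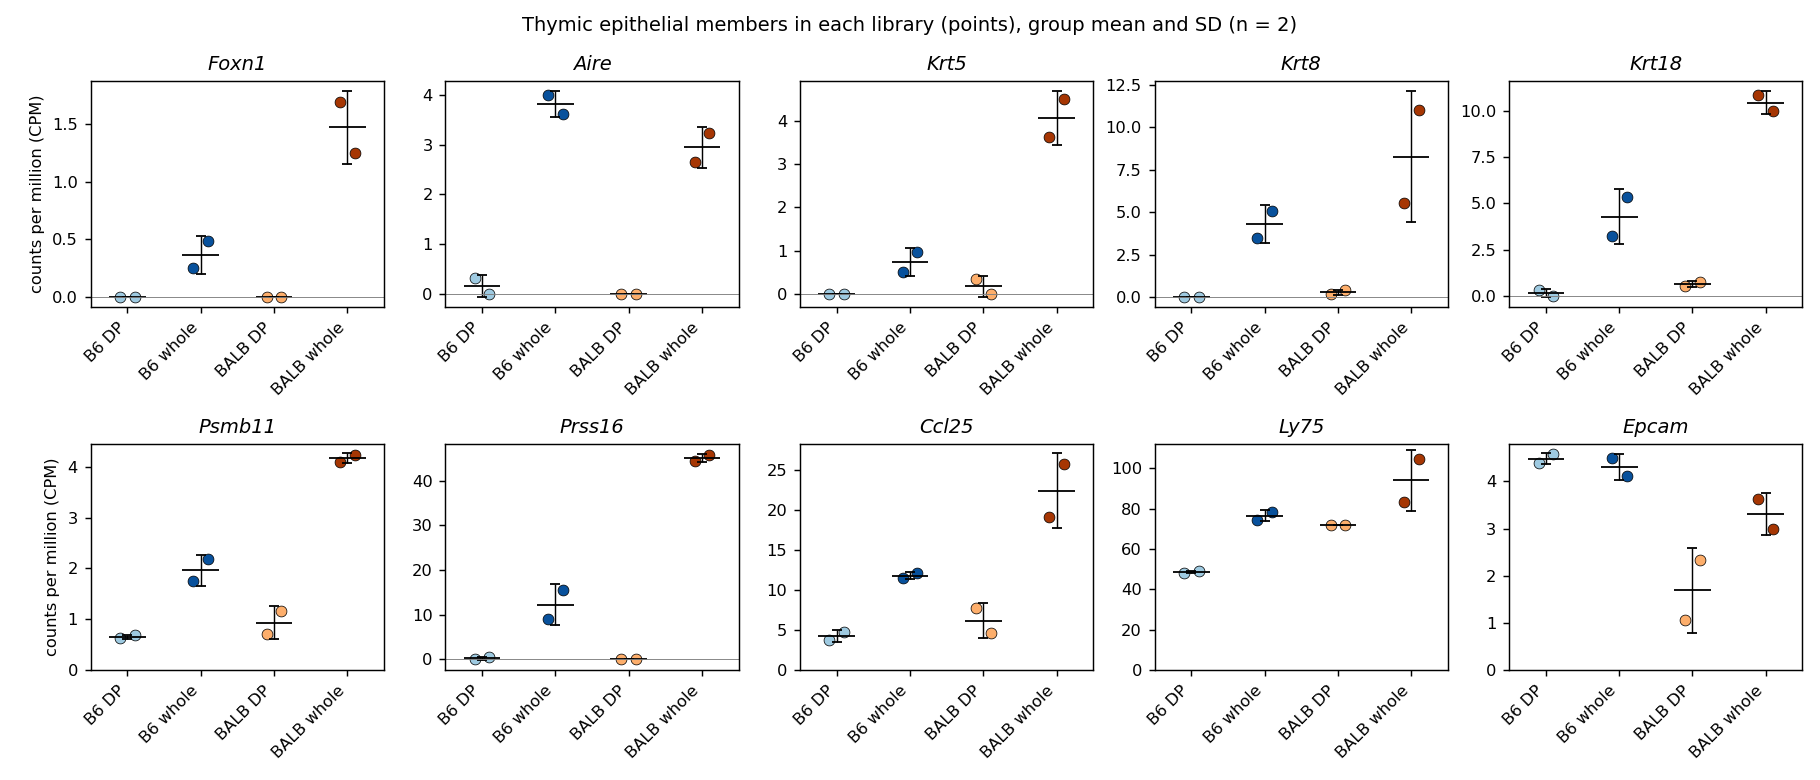
Level of each member in CPM (vertical axis, its own scale per gene) in the 4 groups (horizontal axis); each point is 1 library, the line is the group mean and the bar the SD (n = 2). Krt5, Krt8, Krt18, Prss16, Aire and Foxn1 lie at or near 0 in the DP libraries, while Ly75 is at 48.0 to 71.8 CPM there and Epcam does not separate the B6 groups.

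Foxn1, the master factor of thymic epithelial development, was the scarcest member. It had 0 counts in all 4 DP libraries, 1 and 2 counts in B6 whole and 7 and 5 counts in BALB whole. Its mean level was 0.367 ± 0.165 CPM in B6 whole and 1.47 ± 0.313 CPM in BALB whole (SD, n = 2). The groups did not overlap, and with BALB DP set at 3 counts the observed level of BALB whole was at least 4.07-fold higher. In B6 the 3 counts are at the floor and give no fold.

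Aire, the medullary regulator of self-antigen expression, had 1 and 0 counts in B6 DP and 0 in both BALB DP libraries. In whole thymocytes it had 16 and 15 counts in B6 (4.0 and 3.63 CPM) and 11 and 13 counts in BALB (2.66 and 3.25 CPM). Whole libraries were thus above DP libraries in both strains, and the 2 strains' whole libraries lay close together. The whole over DP ratio in B6 was 28.8 (exact 95% counting interval 4.80 to 1174; adjusted p = 0.00628 by edgeR). In BALB whole thymocytes Aire was at least 8.14-fold higher than in DP cells (adjusted p = 0.00332). The B6 call was lost without B6 DP replicate 2 (adjusted p = 0.0844) or without B6 whole replicate 1 (adjusted p = 0.0640). Of 4 antigens that depend on Aire in the medulla (Ins2, Csn2, Spt1 and Mup4), none had enough counts to be tested: the whole libraries held 1 count of Csn2 in B6 and 1 each of Csn2 and Mup4 in BALB.

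Krt8 and Krt18 encode the paired keratins of simple epithelia, which in the thymus mark the cortex and part of the medulla. Krt8 had 0 counts in both B6 DP libraries, 1 count in each BALB DP library, 3.5 and 5.08 CPM in B6 whole and 5.55 and 10.98 CPM in BALB whole. Krt18 stood at 0.314 and 0 CPM in B6 DP, 3.25 and 5.32 CPM in B6 whole, 0.526 and 0.776 CPM in BALB DP, and 10.9 and 9.99 CPM in BALB whole. For both genes all 4 whole libraries lay above all 4 DP libraries.

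In B6, whole thymocytes held at least 10.8-fold more Krt8 than DP thymocytes (adjusted p = 0.00443), and the ratio for Krt18 was 32.5 (5.47 to 1321; adjusted p = 0.00325). In BALB the ratio for Krt8 was 34.1 (9.07 to 287; adjusted p = 0.000949). Krt18 rose there by 4.04 ± 0.51 on the log2 scale (SE; adjusted p = 0.000301). Krt8, Krt18 and Prss16 stayed called in both strains under all 17 other settings tried. GENCODE names 1 pseudogene after Krt8, and how the authors' counting divided reads between near-identical copies is not given in the sources used here.

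Krt5, the basal keratin that marks medullary and progenitor epithelium, was scarcer. Its counts were 0 and 0 in B6 DP, 2 and 4 in B6 whole, 2 and 0 in BALB DP and 15 and 18 in BALB whole. The groups did not overlap within either strain. In B6 the whole libraries were at least 1.86-fold higher, which was not called (adjusted p = 0.112). In BALB the ratio was 16.8 (4.29 to 144) and Krt5 was called (adjusted p = 0.00466).

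Prss16, the thymus-specific serine protease of cortical epithelium, had the highest lower bound of any member between DP and whole thymocytes, in BALB. It had 0 and 2 counts in B6 DP and 0 counts in both BALB DP libraries, against 36 and 64 counts in B6 whole (9.0 and 15.5 CPM) and 184 and 183 counts in BALB whole (44.4 and 45.7 CPM). The whole over DP ratio in B6 was 46.5 (12.5 to 389; adjusted p = 0.000412). In BALB, whole thymocytes were at least 124-fold higher (adjusted p = 3.67e-06).

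Psmb11, the catalytic subunit of the thymoproteasome, differed from Prss16 in that every DP library held counts of it. It stood at 0.628 and 0.686 CPM in B6 DP, 1.75 and 2.18 CPM in B6 whole, 0.701 and 1.16 CPM in BALB DP and 4.11 and 4.24 CPM in BALB whole. The DP levels correspond to 2 to 4 counts per library. Whole libraries were above DP libraries in both strains. The log2 fold change was 1.53 ± 0.61 in B6, not called (adjusted p = 0.147), and in BALB Psmb11 rose by 2.25 ± 0.50 (adjusted p = 0.00897). The BALB call was lost without BALB DP replicate 1 (adjusted p = 0.147), without BALB whole replicate 1 (adjusted p = 0.0515) and without BALB whole replicate 2 (adjusted p = 0.0594).

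Ccl25 encodes a chemokine of thymic and gut epithelium that attracts precursors and thymocytes carrying its receptor CCR9. Its level was 3.77 and 4.80 CPM in B6 DP, 11.5 and 12.1 CPM in B6 whole, 7.71 and 4.66 CPM in BALB DP and 19.1 and 25.7 CPM in BALB whole. The whole libraries were above the DP libraries in both strains, but unlike Prss16 and the keratins the gene was counted 12 to 44 times in each DP library. It rose by 1.43 ± 0.32 on the log2 scale in B6 (adjusted p = 0.0137) and by 1.76 ± 0.27 in BALB (adjusted p = 0.00103). The B6 call was lost when any 1 of the 4 B6 libraries was left out, with adjusted p from 0.0681 to 0.103.

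Ly75 encodes DEC-205, an endocytic receptor of cortical epithelium and dendritic cells. Its level was 48.0 and 48.9 CPM in B6 DP, 74.5 and 78.4 CPM in B6 whole, 71.8 and 71.8 CPM in BALB DP and 83.3 and 105 CPM in BALB whole. The sorted DP libraries thus held Ly75 at more than a trace, and whole libraries were above them within each strain. It rose by 0.66 ± 0.14 on the log2 scale in B6 (adjusted p = 0.0106), and the difference in BALB was 0.39 ± 0.13, not called (adjusted p = 0.0670). The B6 call was lost without any 1 of the 4 B6 libraries, with adjusted p from 0.0771 to 0.108.

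Epcam, an adhesion molecule of most epithelia, was the only member whose B6 groups overlapped. Its level was 4.39 and 4.57 CPM in B6 DP, 4.50 and 4.11 CPM in B6 whole, 1.05 and 2.33 CPM in BALB DP and 3.62 and 3.0 CPM in BALB whole. The log2 difference of whole over DP was -0.06 ± 0.38 in B6 (adjusted p = 0.95) and 1.14 ± 0.48 in BALB (adjusted p = 0.128), so it was called in neither strain. As a check of the label, Psmb11, Ccl25, Ly75 and Epcam were counted in each sorted DP library, Psmb11 with 2 to 4 counts and the others with 6 or more. Psmb11, Ly75 and Epcam were not called higher in whole thymocytes of both strains. For these 3 genes the libraries do not show a transcript limited to epithelium, for Psmb11 on 2 to 4 counts per DP library. Ccl25 was called higher in both strains, and its reads cannot be told apart from those of Elavl1 where the genes overlap. The counting set 0.214% to 0.301% of the reads per file aside as ambiguous between genes. Whether any Elavl1 reads are in the Ccl25 counts was not tested.

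The strains were compared next, in whole thymocytes. There 8 members had both BALB libraries above both B6 libraries (Foxn1, Krt5, Krt8, Krt18, Psmb11, Prss16, Ccl25 and Ly75), and 2 had both below (Aire and Epcam), where 21.6% of genes with a count lay above and 19.1% below in this way. By edgeR's test 2 of 9 members were called higher in BALB and 0 lower, against 1.98% of all tested genes called higher and 2.61% lower. Those 2 were Prss16 and Krt5. Krt5, with 15 and 18 counts in BALB whole and 0 to 4 in every other library, passed the low-count filter through BALB whole. Psmb11 did so too, with 17 counts in each BALB whole library, 7 and 9 in B6 whole and 2 to 4 in each DP library. The place of Krt5 and Psmb11 among the tested members thus came from the group where they were high, and both enter the median. The median log2 fold change of the 9 was 0.94, against 0.018 over all tested genes.

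Prss16 stood at 9.0 and 15.5 CPM in B6 whole and 44.4 and 45.7 CPM in BALB whole, and rose by 1.87 ± 0.26 on the log2 scale (adjusted p = 0.00141). Every one of the 17 other settings kept that call, with adjusted p up to 0.0247. Krt5 stood at 0.500 and 0.968 CPM in B6 whole and 3.62 and 4.49 CPM in BALB whole, a rise of 2.41 ± 0.60 (adjusted p = 0.0463). It rests on 6 counts in B6, and its call was lost in 9 of 17 other settings. Among these were the omission of B6 DP replicate 1 (adjusted p = 0.0669), B6 DP replicate 2 (0.0696), B6 whole replicate 1 (0.449), B6 whole replicate 2 (0.294), BALB whole replicate 1 (0.172) and BALB whole replicate 2 (0.308).

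For the other members the differences in whole thymocytes did not pass the test. The log2 difference of BALB over B6 was 1.27 ± 0.36 for Krt18 (adjusted p = 0.0727), 0.92 ± 0.24 for Ccl25 (0.0576), 1.07 ± 0.42 for Psmb11 (0.239) and 0.94 ± 0.41 for Krt8 (0.328). Krt18 and Ccl25 were called when BALB DP replicate 1 was left out (adjusted p = 0.0429 and 0.0148) or BALB DP replicate 2 (0.0460 and 0.0146), libraries that enter this comparison only through the gene filter, the scaling and the shared estimate of spread. Ly75 differed by 0.30 ± 0.13 (0.320), Aire by -0.37 ± 0.45 (0.829) and Epcam by -0.37 ± 0.39 (0.790). Foxn1, untested, had a ratio of 3.99 (1.08 to 22.1). Aire and Epcam were thus the tested members whose mean was lower in BALB, without a call.

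**Figure D2:**
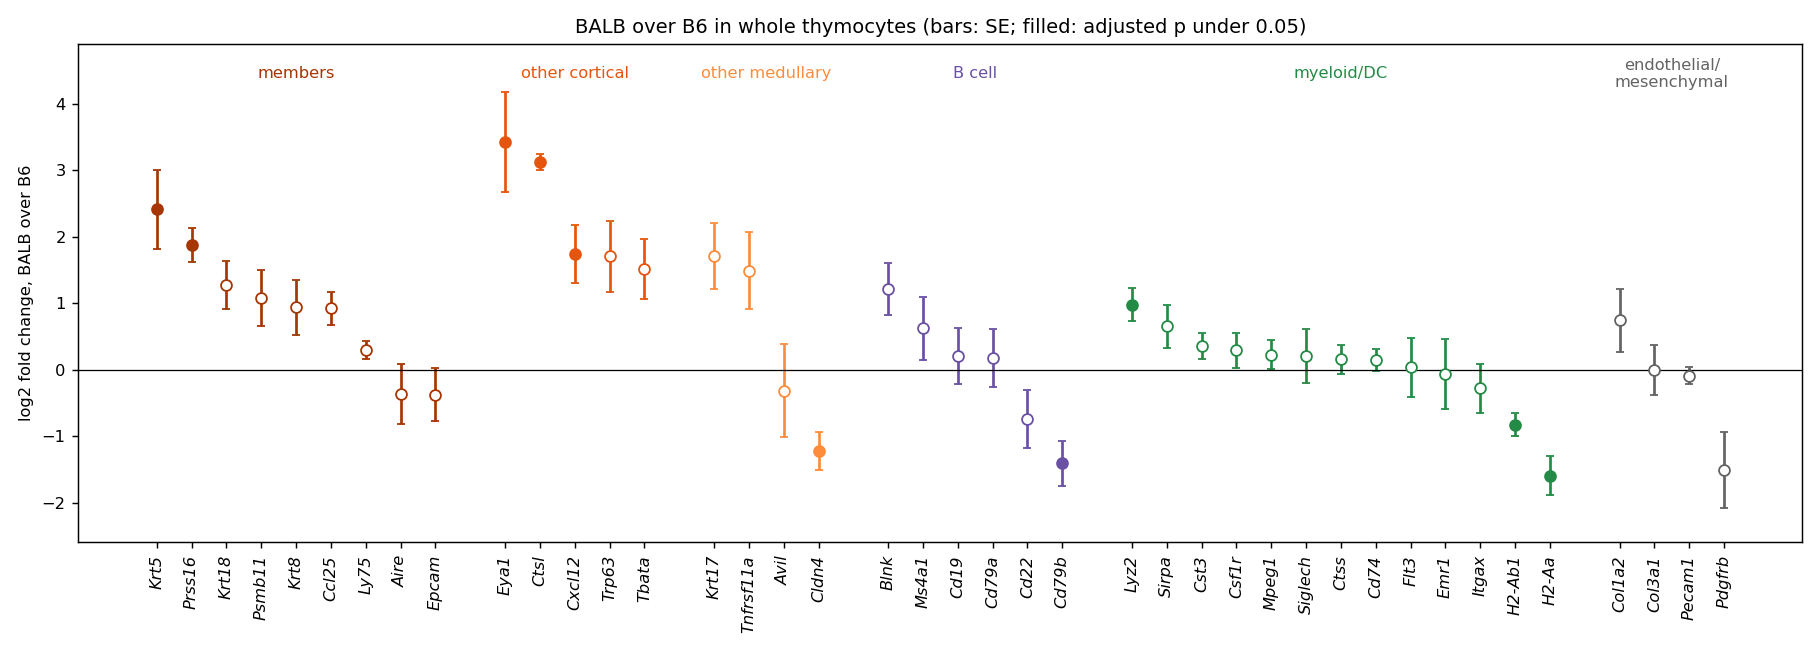
Log2 fold change of BALB over B6 in whole thymocytes (vertical axis) for every tested member and every tested gene of 5 other marker lists (horizontal axis), with SE bars; filled points have an adjusted p under 0.05. Prss16 at 1.87 and Krt5 at 2.41 are the filled members, and Aire and Epcam lie below 0.

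The mix of members within the whole libraries was read from shares of counts, each with an exact 95% interval. Aire made up 30.8% (18.7 to 45.1) and 19.0% (11.03 to 29.4) of the Aire and Prss16 counts in the 2 B6 libraries. In BALB it made up 5.64% (2.85 to 9.87) and 6.63% (3.58 to 11.1), so both BALB shares lay below both B6 shares, while the intervals of the second library of each strain overlapped. This sets a medullary against a cortical transcript, of which Prss16 was called between the strains and Aire was not. Krt5 made up 6.90% (0.846 to 22.8) and 8.51% (2.37 to 20.4) of the counts of the 3 keratins in B6 and 18.1% (10.5 to 28.05) and 17.6% (10.8 to 26.4) in BALB, with overlapping intervals. Psmb11 made up 16.3% (6.81 to 30.7) and 12.3% (5.80 to 22.1) of the Psmb11 and Prss16 counts in B6, and 8.46% (5.0 to 13.2) and 8.50% (5.03 to 13.3) in BALB, again overlapping. Krt8 made up 51.9% and 48.8% of the Krt8 and Krt18 counts in B6 and 33.8% and 52.4% in BALB.

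Levels of different genes were set side by side only per length, as CPM per kilobase of GENCODE M21 exons. The length is the union of all annotated exons of a gene, from 1437 bases for Krt18 to 7445 for Ccl25. It can exceed the length of a transcript, so the order between genes depends on the annotation. In B6 whole, Ly75 led at 11.1 CPM per kilobase. Krt18 (2.98), Prss16 (2.93), Krt8 (2.19) and Epcam (1.96) followed, each overlapping its neighbour in the order. Below them came Ccl25 (1.58), Aire (0.997), Psmb11 (0.410), Krt5 (0.334) and Foxn1 (0.114), of which only Psmb11 and Krt5 overlapped.

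In BALB whole, Ly75 again led at 13.6 CPM per kilobase, with Prss16 at 10.8 and Krt18 at 7.26 next, all apart from each other. Krt8 (4.22) overlapped Ccl25 (3.01), and Krt5 (1.85) overlapped Epcam (1.51). Psmb11 (0.871), Aire (0.772) and Foxn1 (0.457) closed the order. In the DP libraries the same 3 members had the highest means in both strains. In B6 DP these were Ly75 (7.02), Epcam (2.04) and Ccl25 (0.575), with the other members at 0.137 or less. In BALB DP they were Ly75 (10.4), Ccl25 (0.831) and Epcam (0.770), followed by Krt18 (0.453), with Ccl25 and Epcam overlapping and Epcam and Krt18 overlapping.

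**Figure D3:**
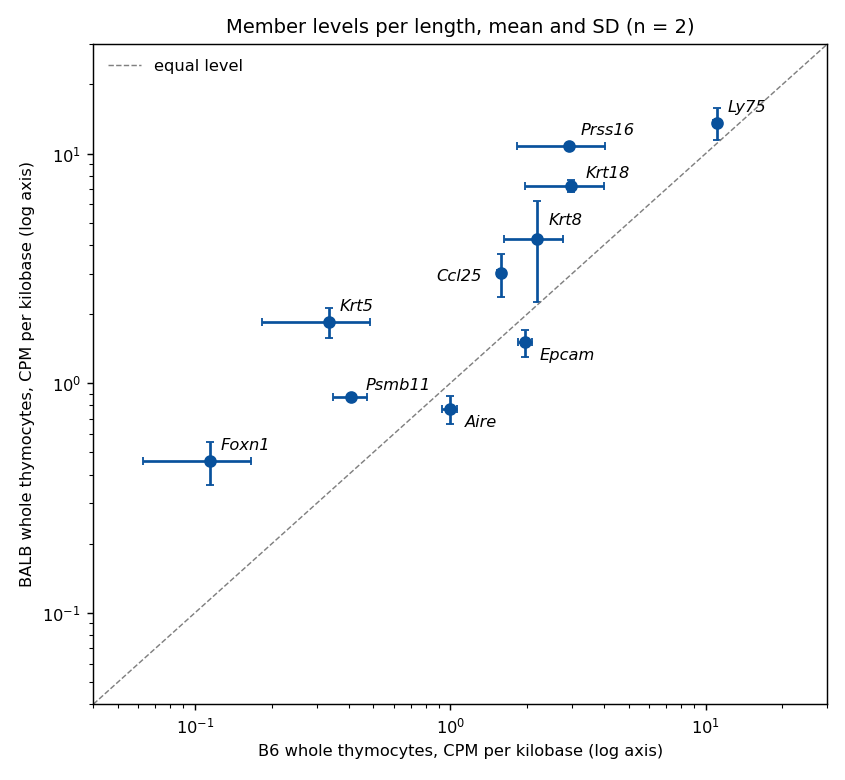
Mean CPM per kilobase of exons in B6 whole thymocytes (horizontal, log axis) against BALB whole thymocytes (vertical, log axis), with SD bars (n = 2) and a dashed line of equal level. Krt5 (0.334 and 1.85), Foxn1 (0.114 and 0.457) and Prss16 (2.93 and 10.8) lie farthest above the line, and Aire and Epcam lie below it.

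Between the strains' DP libraries few members were called. By edgeR's test 2 of 9 members were called there, Ly75 higher in BALB (by 0.57 ± 0.14 on the log2 scale; adjusted p = 0.0206) and Epcam lower in BALB (-1.58 ± 0.46; adjusted p = 0.0442), against 6.85% of tested genes called higher and 6.14% lower. Ly75 stood at 48.0 and 48.9 CPM in B6 DP and at 71.8 CPM in both BALB DP libraries, and Epcam at 4.39 and 4.57 CPM against 1.05 and 2.33 CPM. Neither gene's groups overlapped. In all, 4 of 10 members (Ly75, Krt8, Krt18 and Psmb11) had both BALB DP libraries above both B6 DP libraries, against 19.9% of genes with a count. For Krt8, Krt18 and Psmb11 this rests on 0 to 4 counts per library, and none of these 3 was called (adjusted p = 0.360, 0.309 and 0.821). The Ly75 call was lost without B6 DP replicate 1 (adjusted p = 0.124) or replicate 2 (0.125). The Epcam call was lost without BALB DP replicate 1 (adjusted p = 0.433), without either B6 DP replicate (0.138 and 0.201), without either B6 whole replicate (0.0877 and 0.0875), and without BALB whole replicate 1 (0.0655) or 2 (0.0636).

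Whether the strain difference depended on the population was tested as an interaction, the strain difference of whole thymocytes less that of DP thymocytes on the log2 scale. By edgeR's test 0 of 9 members were called, against 0.123% of all tested genes, and 1 member, Prss16, had an unadjusted p under 0.05. DESeq2 and limma-voom also called 0. The Prss16 difference was 5.12 ± 2.2 on the log2 scale (adjusted p = 0.437 by edgeR), with 2 counts of the gene in all DP libraries together. The strain differences in whole thymocytes described above are therefore not shown to differ from those in DP cells.

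Other genes of the same cells were read from lists of 13 further cortical and 17 further medullary genes. Both lists were drawn up with earlier results of these data known. The cortical list was not trimmed afterwards for these tests, and Trp63 and Eya1 in it are not specific to the cortex. Of the cortical list 5 genes had enough counts to be tested. Cxcl12, Tbata, Trp63 and Eya1 passed the low-count filter through whole libraries, which favours calls of higher in whole. Over all tested genes 6.89% were called higher in B6 and 10.6% in BALB. In B6, 2 of these were called higher in whole than in DP thymocytes: Tbata, a gene of thymic epithelium, by at least 11.5-fold (adjusted p = 0.00875), and Cxcl12, a chemokine of cortical stroma, by at least 4.96-fold (adjusted p = 0.0139). In BALB, 4 were called higher, among them Trp63, the transcription factor that maintains epithelial progenitors, by at least 10.2-fold (adjusted p = 0.00227) and Eya1, a factor of thymus formation, by at least 8.14-fold (adjusted p = 0.00377). Ctsl, a lysosomal protease, was called lower there (-0.46 ± 0.10; adjusted p = 0.00987). Ctsl was named after its values were seen, and it had 632 counts in B6 DP and 7913 in BALB DP.

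Of the medullary genes 4 were tested. Called higher in whole than in DP thymocytes were 1 in B6 and 2 in BALB, against 6.89% and 10.6% of all tested genes. The genes called, Krt17 and Tnfrsf11a, had 0 counts in every DP library and passed the low-count filter through whole libraries. In B6 the level of Krt17, a keratin, in whole thymocytes was at least 4.03-fold that in DP cells (adjusted p = 0.0349) and in BALB at least 14.6-fold (adjusted p = 0.00146). Tnfrsf11a, which encodes the receptor RANK that matures medullary epithelium, was called in BALB, at least 7.80-fold higher (adjusted p = 0.00451). In B6 it was at least 2.48-fold higher and not called (adjusted p = 0.0686). The other tested genes, named after their values were seen, had negative log2 differences of whole over DP that were not called: Cldn4, a tight junction gene, with -0.29 ± 0.24 in B6 and -0.89 ± 0.29 in BALB (adjusted p = 0.537 and 0.0559), and Avil, a tuft cell gene, with -0.50 ± 0.64 and -0.65 ± 0.68 (0.702 and 0.559). The chemokine genes Ccl21a and Ccl19 were at 0 counts in all 8 libraries.

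In the strain comparison of whole thymocytes 3 of the 5 tested genes of the cortical list were called higher in BALB. Over all tested genes 1.98% were called higher and 2.61% lower. Eya1, with 24 counts in BALB whole, 2 in B6 whole and 0 in the DP libraries, passed the low-count filter through BALB whole. Cxcl12 did so too, with 54 counts in BALB whole, 16 in B6 whole, 2 in BALB DP and 0 in B6 DP. The place of both among the tested genes thus came from the group where they were high, which favours calls of higher in BALB. The ratio for Eya1 was 11.98 (2.98 to 105; adjusted p = 0.0293), Cxcl12 rose by 1.74 ± 0.43 (adjusted p = 0.0475) and Ctsl by 3.12 ± 0.12 (adjusted p = 2.44e-08). Ctsl rose by 3.49 ± 0.12 in sorted DP cells too (adjusted p = 7.88e-09), so it does not mark epithelium here. Tbata differed by 1.52 ± 0.45 (adjusted p = 0.0991) and Trp63 by 1.71 ± 0.53 (adjusted p = 0.130). Of the 4 tested medullary genes 0 were called higher in BALB by edgeR and 1 lower, Cldn4 (-1.23 ± 0.28; adjusted p = 0.0275), and Krt17 differed by 1.71 ± 0.50 (adjusted p = 0.105). Cldn4 was named after its values were seen and was counted in the DP libraries as well.

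Summed levels show the members beside the markers of other cells that a sample of whole thymocytes can hold. The 3 keratins summed to 0 to 0.314 CPM in B6 DP, 7.25 to 11.4 in B6 whole, 1.05 to 1.16 in BALB DP and 20.05 to 25.5 in BALB whole. The 7 members other than Ly75, Ccl25 and Epcam, chosen after their values were seen, summed to 1.14 to 1.26, 22.2 to 33.1, 1.75 to 2.33 and 72.9 to 79.9 CPM in the same order. The other cortical genes without Ctsl, likewise trimmed after their values were seen, summed to 13.2 to 13.3 CPM in B6 whole and 32.1 to 39.2 CPM in BALB whole.

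Myeloid and dendritic cell markers (15 genes, with Batf3 at 0 counts in every DP library) summed to 29.8 to 51.9 CPM in B6 DP, 305 to 328 in B6 whole, 38.4 to 46.1 in BALB DP and 327 to 341 in BALB whole, and 12 of 13 tested were called higher in whole than in DP thymocytes in each strain. B cell markers (8 genes) summed to 11.9 to 13.02, 24.9 to 28.5, 8.76 to 8.93 and 22.5 to 26.6 CPM, with 3 and 4 of 6 tested called higher in B6 and BALB. Endothelial and mesenchymal markers (10 genes) summed to 143 to 162, 159 to 173, 124 to 139 and 140 to 169 CPM, and Kdr, Col3a1, Pdgfra, Dcn and Lum were at 0 in every DP library. Of the endothelial and mesenchymal genes 2 of 4 tested were called higher in whole thymocytes in B6 and 1 of 4 in BALB. Over all tested genes 6.89% were called higher in B6 and 10.6% in BALB. In these lists too, genes with counts almost only in whole libraries passed the low-count filter through those libraries, which favours calls of higher in whole. The endothelial and mesenchymal sums overlapped in B6, where they follow Pecam1. Pecam1 made up 1135 of the list's 1165 counts in B6 DP and 1204 of 1352 in B6 whole. The myeloid and B cell sums were higher in whole than in DP thymocytes without overlap in both strains, and their part in the results for Ly75, Ccl25 and Epcam was not tested. Between the strains in whole thymocytes the ratio of summed levels, BALB over B6, was 1.63 for all 10 members and 2.75 for the 7. It was 7.85 for the 13 other cortical genes, 2.68 for them without Ctsl and 1.13 for the 17 other medullary genes. It was 1.45 for the erythroid markers, 1.05 for the myeloid markers, 0.920 for the B cell markers and 1.08 for the mature thymocyte markers. The medullary list was not trimmed of genes counted in DP cells, so 1.13 and 2.68 are not like measures. Cldn4, which was also counted in DP libraries, made up 96 of the medullary list's 178 counts in B6 whole and 41 of 202 in BALB whole.

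**Figure D4:**
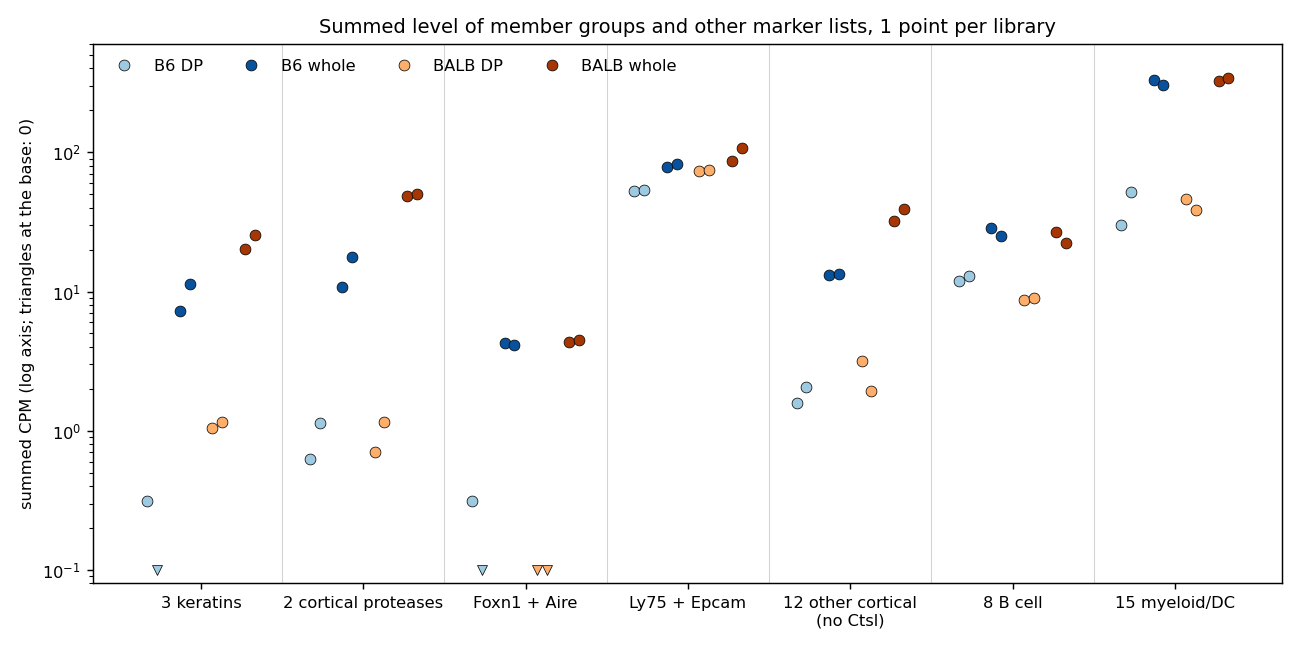
Summed CPM (vertical, log axis) of member groups and of other marker lists (horizontal axis), 1 point per library coloured by group; triangles at the base mark a sum of 0. The keratins (7.25 to 11.4 against 20.05 to 25.5 CPM) and the cortical proteases (10.7 to 17.7 against 48.5 to 49.9 CPM) separate B6 whole from BALB whole, while the myeloid list spans 305 to 328 against 327 to 341 CPM.

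The genes whose pattern was most like the members were taken from 9827 candidates by Pearson's r over the 8 libraries between log2(CPM + 1) of the gene and of the summed member counts, as a description with no p. The sum follows Ly75, which made up 61.4% to 66.1% of the members' counts in B6 whole and 46.6% to 49.1% in BALB whole. The closest genes were Nfatc1 (r = 0.991), Slc25a39 (0.991), Sorl1 (0.987), Per2 (0.985), Mogs (0.983), Eml4 (0.976), Mdn1 (0.976) and Rapgef6 (0.975). With Ly75 left out of the sum, a choice made after seeing the data, they were Fosl2 (0.995), Gas6 (0.994), Tnc (0.994), Srpk1 (0.991), Runx2 (0.991), Plek (0.991), Cdc42bpb (0.990) and Ptpn13 (0.989). The 8 libraries fall into 4 groups, which the points of each correlation share. Tnc, an extracellular matrix gene, for example had group means of 0, 5.89, 0 and 20.2 CPM in B6 DP, B6 whole, BALB DP and BALB whole.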

How the data were processed

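The deposited files hold raw whole-number read counts per gene symbol, 1 file per library. Per the submitters' processing notes, the authors aligned reads with HISAT2 2.2.0 to mm10, counted them with HTSeq and used DESeq2 1.42.1. The sources used here give neither the annotation nor the strand setting and the version of HTSeq. Lines that name no gene stay out of library sizes: of 11214574 to 19602652 reads per file, no gene was assigned to 43.3% to 48.9%, 12.8% to 21.2% failed to align, 10.1% to 11.9% aligned to several places, and genes took 22.6% to 30.8%.

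edgeR 4.0.16 (R 4.3.3) was used on the counts: filterByExpr over 4 groups (11409 genes tested, 6025 with a count not tested), trimmed mean of M values scaling (factors 0.957 to 1.05), 1 coefficient per group and quasi-likelihood contrasts, with Benjamini-Hochberg adjustment over all genes tested. The common biological coefficient of variation was 0.114. The fit was checked on simulated counts. SE is the absolute log2 fold change divided by the root of F. CPM uses the scaled library sizes, with SD over 2 libraries. Where a group had 0 counts the fold is a lower bound from 3 counts over the group, with the other group's counts taken as observed. A group with 1 to 3 counts gets a ratio and its exact 95% interval for counting error. Exon lengths are from GENCODE M21, in which 21777 of the 23420 symbols were matched, and promoters from RefSeq. Alternatives used DESeq2 1.42.0, limma 3.58.1 and other filters, scalings and libraries.

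All members are named. Genes of the other lists were named where called in whole over DP, at most 4 per list and contrast with the smallest p, and the 8 genes most like the members were named if their mean in whole libraries was at least 5 CPM. Of 102 list entries 101 were found, 3 under an older symbol. Members and lists were chosen with earlier results of these data known. Libraries were not paired by their replicate numbers.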

Additional observations from a re-analysis of the deposited data

How the results depend on the processing

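Of 744 values of single members under 17 other settings, 686 kept their direction and side of the threshold, 38 lost a call, 14 gained one and 6 changed sign. All 6 were uncalled interactions of genes with few DP counts: Krt5, -0.71 as reported, became 0.27 with DESeq2's Wald test, 1.18 with limma-voom, 2.39 without BALB DP replicate 1 and 2.53 without both BALB replicate 1 libraries; Aire, 2.03 as reported, became -0.37 without B6 DP replicate 1, and Krt18, -0.69 as reported, became 0.36 without B6 DP replicate 2. With single libraries left out these interactions ranged from -1.30 to 2.39 for Krt5, from -0.37 to 3.06 for Aire and from -3.13 to 0.36 for Krt18. The cause was not tested.

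The number of members called for BALB over B6 in whole thymocytes, 2 as reported, was 4 with no filter, 4 with only the libraries compared, 4 without both BALB replicate 1 libraries, 1 with a filter of 1 CPM in 2 libraries, 1 with DESeq2's Wald test and 1 with the replicate block, and ranged from 1 to 4 when single libraries were left out. For BALB over B6 in DP, 2 as reported, it was 1 with DESeq2's Wald test, 1 with the replicate block, 1 without both BALB replicate 1 libraries and 0 with only the libraries compared, and ranged from 0 to 2 with single libraries left out. For whole over DP in B6, 6 as reported, it ranged from 3 to 6 with single libraries left out, and in BALB, 7 as reported, from 6 to 8 over all settings.

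Genes called over the whole table moved more. Whole over DP in B6 gave 1159, and 748 with DESeq2's Wald test, 2568 with only the libraries compared, 2809 without both BALB replicate 1 libraries and 378 to 2201 with single libraries left out. In BALB it gave 1961, and 1101 with only the libraries compared and 1040 to 3976 with single libraries left out. BALB over B6 in whole gave 524, and 839 with no filter, 1050 with only the libraries compared, 1046 without both BALB replicate 1 libraries and 214 to 966 with single libraries left out. BALB over B6 in DP gave 1482, and 562 with only the libraries compared and 509 to 3493 with single libraries left out. The interaction gave 14, and 364 with no filter, 24 with DESeq2's Wald test, 8 with limma-voom, 139 without both BALB replicate 1 libraries and 0 to 1311 with single libraries left out.

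The replicate numbers do not pair the libraries (correlations of deviations from -0.035 to 0.048), so the replicate block is an alternative only. Scalings moved the median of all genes by at most 0.066 on the log2 scale. With 2 libraries per group and members at a few counts per library, depth limits Foxn1, Krt5 and all DP levels near 0: differences there may exist that were not detectable.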
